A study of Rattus norvegicus with 24 samples.

Results

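Midbrain RNA of rats that had lost both the ovaries and the adrenal glands (OVX/ADX) was compared after paced mating and after exposure to the empty mating chamber. The members were the 6 arrays whose treatment label reads OVX ADX, of 24 arrays in the series. Of these, 3 were labelled paced (arrays 4123, 4125 and 2541) and 3 were labelled chamber-exposed (arrays 4124, 4126 and 2530). The rats were Long-Evans females of 50 to 60 days. By their labels and the study's methods all of them, controls included, lost these glands 10 days before the test and received 10 μg of estradiol benzoate 44 h before it. In paced mating the female controls her contacts with the male through a hole in a partition. The yoked controls entered a clean chamber without a male. The midbrain was dissected grossly between the optic chiasm and the pons, so that neighbouring hypothalamus and thalamus could be included. A rat of this surgery did not survive the operation, by the account in the study's methods, and no source ties this loss to an array. The methods give n = 6 for this surgery, and 6 arrays carry its label. RNA was measured on Affymetrix rat expression arrays, and values are log2 signals. Differences are paced minus chamber-exposed on that scale.

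The ovaries and the adrenal glands are the main peripheral sources of progestogens, and the adrenal cortex makes the glucocorticoids. Neurons and glia also synthesize progestogens from cholesterol, so that removal of both glands separates peripheral from local steroids. The midbrain holds the dopamine neurons of the ventral tegmental area, where progestogens are known to facilitate lordosis, the receptive posture of female rodents. The anterior pituitary lies under the hypothalamus and makes growth hormone, prolactin, thyrotropin, the gonadotropins and corticotropin.

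Arrays 2541 and 2530 stood apart from the other 4 in their numbering, which belongs to a series of titles that also names arrays of intact rats. Whether both came from OVX/ADX rats, as their labels say, could not be checked here. In signal, array 2541 held the most probe sets far above the other arrays, and array 2530 the most far below them. On array 2541, 104 probe sets were over 2-fold above the mean of the other 5 arrays and 9 were as far below it. On array 2530, 4 were above and 55 below, and on array 4123, 27 were above and 47 below. Correlations across probe sets between pairs of the 6 arrays lay between 0.9888 and 0.9966, and the closest pair, 4125 and 4126, crossed the labels. Array 2530 correlated with array 4123 at 0.9957. The first principal component held 42.6% of the variance and placed array 4123 (0.60) opposite array 2541 (−0.56), which share the paced label. The main results are therefore given for the 6 arrays and for arrays 4123 to 4126. With the latter, 2 rats remain in each group.

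Mating changed no probe set past the threshold in OVX/ADX rats. Of 27035 probe sets tested, 0 (0%) had an adjusted p below 0.05 in limma, and the smallest adjusted p was 0.305. At an unadjusted p below 0.05 there were 667 (2.47%), with 249 higher and 418 lower after mating. In 49.1% of all probe sets the difference was positive. The paced arrays lay wholly above the chamber-exposed arrays in 2.69% and wholly below them in 4.1%. Differences beyond 2-fold were found for 14 probe sets (0.0518%), 13 higher and 1 lower. Without arrays 2541 and 2530, 0 probe sets passed and 2208 (8.17%) had an unadjusted p below 0.05. Then 49.9% of the differences were positive, and 58 (0.215%) were beyond 2-fold, 13 higher and 45 lower. With 2 arrays against 2, the groups did not overlap in 19.8% (paced higher) and 22.1% (paced lower) of all probe sets.

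The hormone genes of the anterior pituitary were high on array 2541. Prl, which encodes prolactin, had signals of 4.94, 4.72 and 14.36 on the paced arrays 4123, 4125 and 2541. On the chamber-exposed arrays 4124, 4126 and 2530 it had 5.13, 4.62 and 7.89. Arrays 2541 and 2530 were the ones above 5.13. Gh1, growth hormone, read 6.19, 5.97 and 13.52 after mating and 6.06, 5.93 and 7.24 after chamber exposure, with the same 2 arrays on top. The difference for Prl was 2.13 (standard error 2.51, adjusted p = 1 in limma, exact permutation p = 0.8). That for Gh1 was 2.15 (standard error 1.90, adjusted p = 1 in limma, exact permutation p = 0.6). Without arrays 2541 and 2530, Prl differed by −0.04 (standard error 0.18) and Gh1 by 0.08 (standard error 0.10). With 3 arrays against 3, the smallest two-sided p that the exact permutation test allows is 0.1.

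The gonadotropin genes followed array 2541 alone. Lhb, the β subunit of luteinizing hormone, was 7.13, 7.18 and 10.14 on the paced arrays and 7.53, 6.78 and 7.34 on the chamber-exposed arrays. The brighter probe set of Fshb, the β subunit of follicle-stimulating hormone, was 6.15, 6.03 and 7.46 against 6.14, 5.97 and 6.21. In each, 5 arrays lay close together and 1 stood above them. On the dimmer probe set of Gnrhr, the receptor for gonadotropin-releasing hormone, signals were 4.43, 4.40 and 6.89 against 4.50, 4.27 and 4.56. Its brighter probe set had 5.45, 5.24 and 5.95 against 5.15, 5.01 and 5.29, so that array 2541 was again highest but by less. S100g, a calcium-binding protein, had 6.68, 6.57 and 10.29 on the paced arrays and 6.47, 6.60 and 5.45 on the chamber-exposed arrays. Klk1b3, a kallikrein peptidase, had 5.10, 5.15 and 8.38 against 5.19, 5.14 and 5.08. Both were also highest on array 2541.

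The thyrotropin genes had another order of arrays. Tshb, the β subunit of thyrotropin, was 7.24, 10.89 and 11.54 on the paced arrays and 11.17, 6.50 and 4.53 on the chamber-exposed arrays. Cga, the α subunit shared by thyrotropin and the gonadotropins, was 7.53, 11.28 and 12.86 against 11.71, 9.82 and 6.04. Both genes were high on arrays 4125 and 4124, where Gh1 and Prl were among the 4 low arrays. Tshb differed by 2.49 after mating (standard error 1.79, adjusted p = 1 in limma), and by 0.23 without arrays 2541 and 2530 (standard error 1.79). Cga differed by 1.36 (standard error 1.73), and by −1.36 without these arrays (standard error 1.27), so the direction turned.

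**Figure D1:**
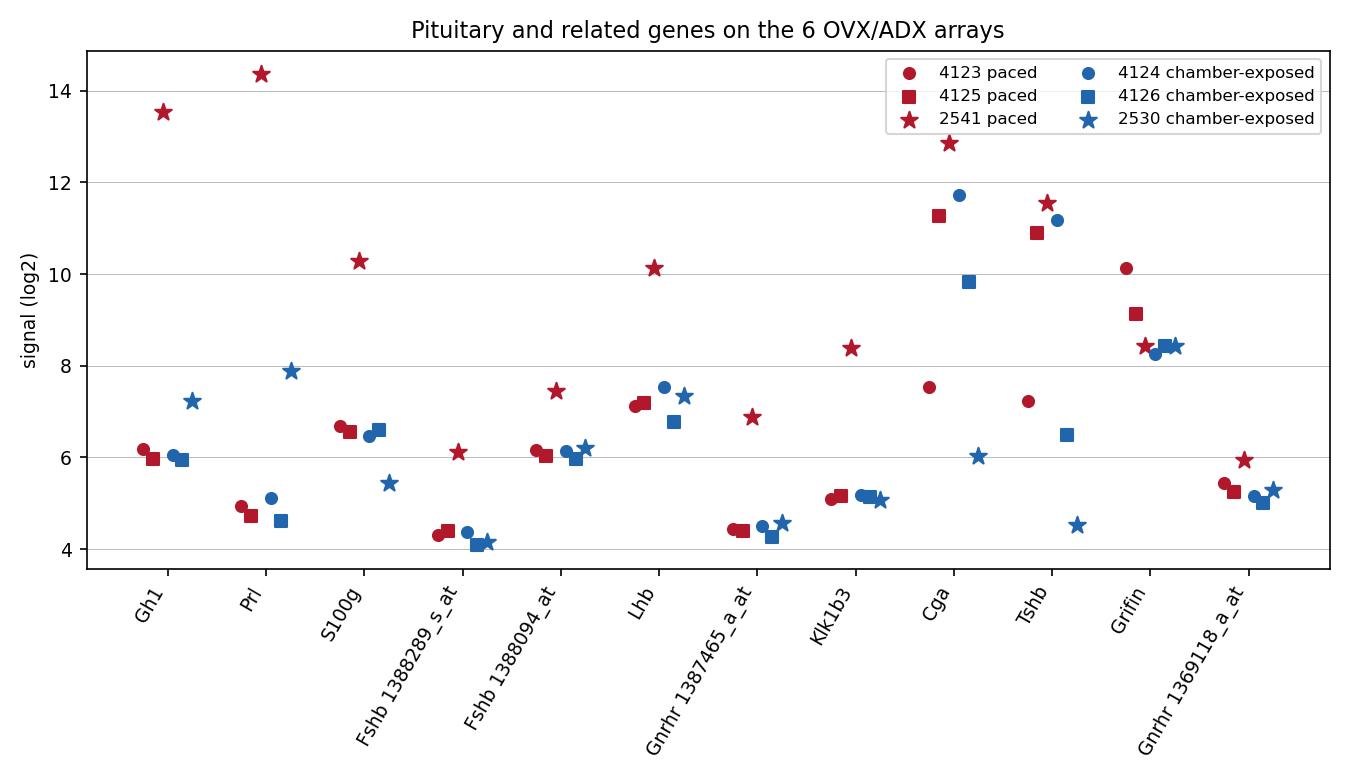
Signal (log2) of 12 probe sets of pituitary and related genes on the 6 OVX/ADX arrays, with paced arrays in red, chamber-exposed arrays in blue and stars for arrays 2541 and 2530. Prl reached 14.36 and Gh1 13.52 on array 2541, while Tshb and Cga were also high on arrays 4125 and 4124.

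Over the 7 pituitary hormone genes listed, 7 differences were positive with a median of 1.36, where the median over all probe sets was −0.0016. All 7 were highest on array 2541, and 0 were called. On arrays 4123 to 4126 the median was 0.04. In a further list of 14 measured genes of the anterior pituitary, such as its transcription factors, the median was 0.24, and −0.01 on arrays 4123 to 4126. The listed hormone genes thus peaked together on array 2541, but not all followed it alone. Tshb and Cga were also high on arrays 4124 and 4125, and Prl and Gh1 were above arrays 4123 to 4126 on array 2530. The part of these levels in the other results was not tested. In tissue RNA, fewer cells of a type and less RNA per cell cannot be told apart.

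The list of genes that the study gave for mating in intact rats was also examined. Of its 53 entries, 48 were matched by accession. It was chosen on arrays of this series, so its direction is not independent evidence. Of the 48, 42 differences were positive and 6 negative in OVX/ADX rats, with a median of 0.41. None of the 48 was called, 2 had an unadjusted p below 0.05 and 6 were more than 2-fold higher. Array 2541 held the highest signal in 41 of 48, against 16.9% of all probe sets. Array 2541 exceeded array 2530 in 48 of 48, with a median of 1.46. On arrays 4123 to 4126, 17 were positive and 31 negative, with a median of −0.08. Of the 48, 5 were more than 2-fold lower there: Cga (−1.36), Cd74 (−1.34), Igf2 (−1.32), RT1-Da (−1.18) and Omd (−1.12). Grifin, a lens galectin-like protein, was the only 1 more than 2-fold higher. It had 10.14, 9.12 and 8.44 on the paced arrays against 8.26, 8.44 and 8.43, a difference of 1.28 on arrays 4123 to 4126 (standard error 0.32, adjusted p = 0.582 in limma).

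**Figure D2:**
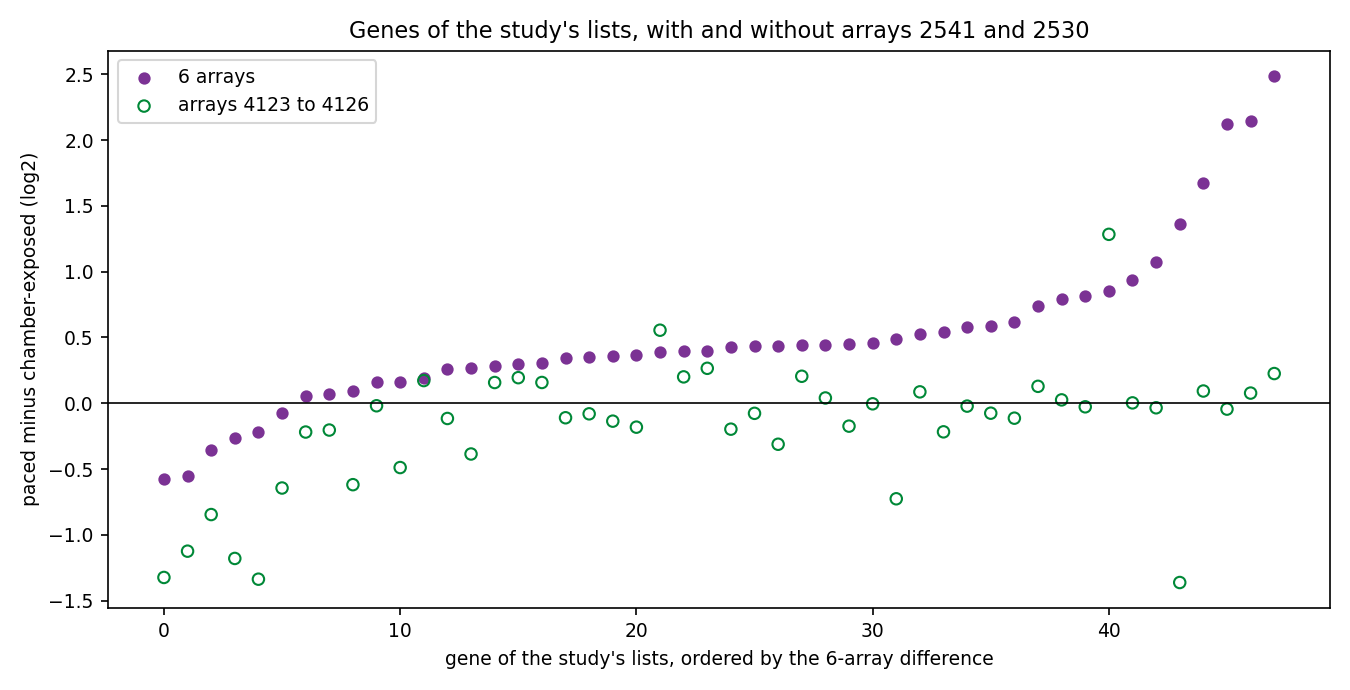
Paced minus chamber-exposed difference (log2) for 48 genes that the study named in intact rats, ordered by the difference over the 6 arrays. Filled points are the 6 arrays (median 0.41) and open points are arrays 4123 to 4126 (median −0.08), and the latter lie around or below 0 for most genes.

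In some genes all paced arrays lay above all chamber-exposed arrays, and none of them passed the threshold. They were chosen for this non-overlap with arrays 2541 and 2530 included. Their non-overlap without these arrays therefore follows from the choice and is no test of it. Rrs1-ps9, annotated as a pseudogene of a ribosome biogenesis factor, had 7.82, 7.79 and 7.73 after mating and 7.13, 7.19 and 7.06 after chamber exposure. Its difference was 0.66 (standard error 0.06, adjusted p = 0.305 in limma), and 0.65 on arrays 4123 to 4126 (standard error 0.07). Probes of a pseudogene can also bind transcripts of its parent gene, so that the source of this signal is uncertain. P2ry12, a purine receptor of resting microglia, had 8.79, 8.48 and 8.68 against 8.28, 8.26 and 8.06, a difference of 0.45 (standard error 0.10, adjusted p = 1 in limma). A probe set of Dusp1, a phosphatase that inactivates MAP kinases, had 8.21, 7.86 and 8.0 against 7.71, 7.73 and 7.66. A second, brighter probe set of Dusp1 overlapped between the groups, with 10.74, 10.30 and 10.73 against 10.35, 10.26 and 10.38. The ubiquitin ligase gene Hecw2 differed by 0.50 (standard error 0.12) and the phosphoribosyl pyrophosphate synthetase gene Prps2 by 0.34 (standard error 0.09). Rbm15, an RNA-binding protein gene, differed by 0.52 and Ccnc, cyclin C, by 0.24.

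Other genes were lower on every paced array than on any chamber-exposed array. Klhl4, a kelch-like protein gene, had 7.30, 7.40 and 7.43 after mating and 7.72, 7.71 and 7.67 after chamber exposure, a difference of −0.32 (standard error 0.06, adjusted p = 1 in limma). Ermn, an actin-binding protein of myelinating oligodendrocytes, had 8.47, 8.73 and 8.67 against 9.09, 8.89 and 8.94 on one probe set. On its brighter probe set it had 9.98, 10.23 and 10.45 against 10.69, 10.46 and 10.51, again without overlap. Plekhh1 differed by −0.50 (standard error 0.13), Evi2a by −0.37 (standard error 0.10) and Prrt2, a presynaptic protein gene, by −0.29 (standard error 0.07). Rlbp1, a retinoid-binding protein, differed by −0.29 and Car14, a carbonic anhydrase, by −0.30. For all 20 genes named by this ordering the exact permutation p was 0.1, the smallest possible, because non-overlap was the rule that chose them.

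**Figure D3:**
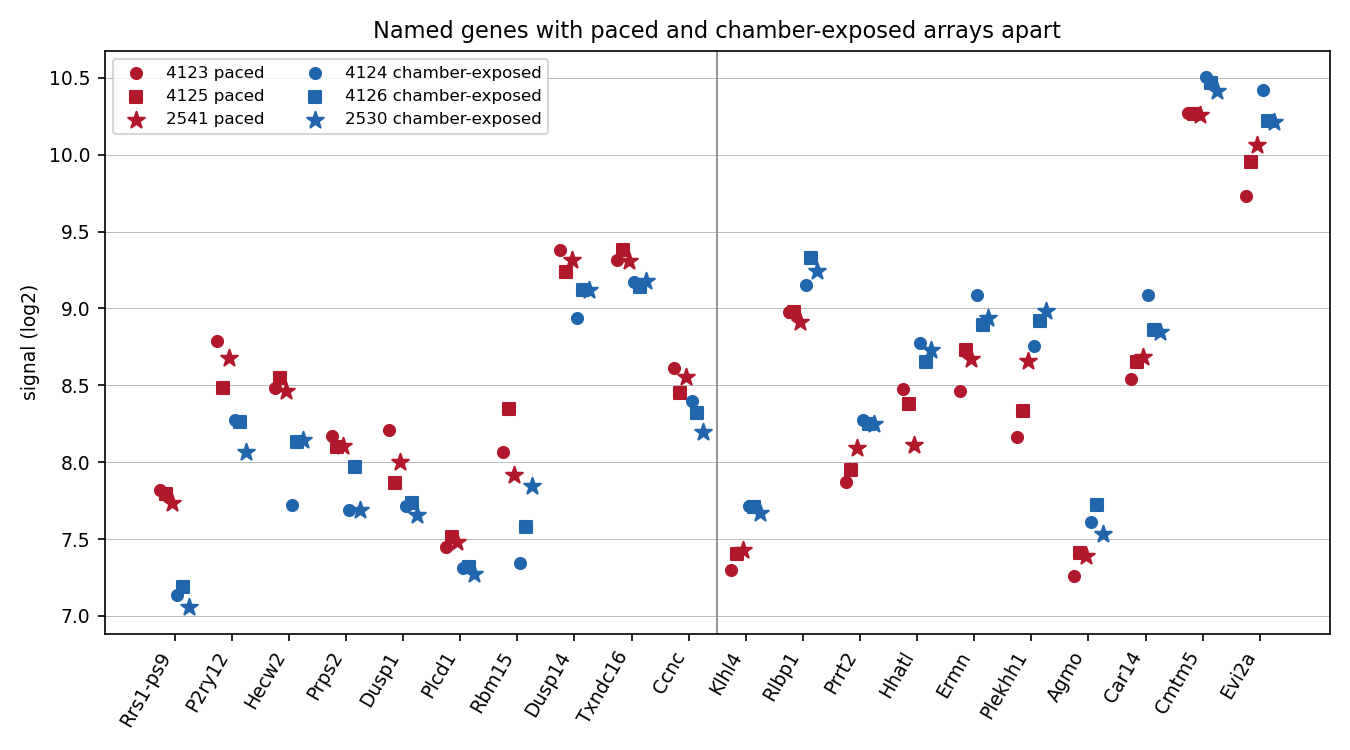
Signal (log2) of 20 named genes whose 3 paced arrays (red) did not overlap the 3 chamber-exposed arrays (blue), with stars for arrays 2541 and 2530. The left 10 genes were higher and the right 10 lower after mating, and Rrs1-ps9 had the smallest adjusted p, 0.305.

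Genes of myelin had small negative differences. Of 13 measured genes of myelin and oligodendrocytes, 13 had negative differences, with a median of −0.16 and a range from −0.33 to −0.05, and 0 were called. The groups did not overlap in 3 of 13 (Mbp, Opalin and Ermn), beside 4.1% of all probe sets. Opalin, an oligodendrocyte membrane protein gene, had 8.86, 9.077 and 9.01 on the paced arrays and 9.52, 9.078 and 9.19 on the chamber-exposed arrays, and arrays 4125 and 4126 nearly coincided. Mbp, myelin basic protein, differed by −0.06 (standard error 0.05). Array 4124 was highest in 12 of 13 of these genes and array 4123 lowest in 7 of 13. On arrays 4123 to 4126 all 13 differences were again negative, with a median of −0.26, whereas array 2541 differed from array 2530 by a median of −0.03.

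Fibroblast genes of the meninges did not follow the mating label. The list median was 6.48 and 7.42 on paced arrays 4123 and 4125 and 7.95 on array 2541. It was 8.26, 8.06 and 6.23 on chamber-exposed arrays 4124, 4126 and 2530. Col1a2, a chain of collagen I, had 7.43, 8.77 and 8.76 against 9.53, 9.46 and 7.13. Of 13 genes, 10 differences were negative over the 6 arrays (median −0.34) and 13 over arrays 4123 to 4126 (median −1.17). Array 2541 exceeded array 2530 by a median of 1.58. The paced arrays were thus lower within arrays 4123 to 4126 and higher in the pair 2541 and 2530.

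Markers of the dissected region were present. Th, tyrosine hydroxylase, which makes the dopamine precursor, had 9.05, 9.81 and 10.30 on the paced arrays and 10.45, 10.46 and 9.96 on the chamber-exposed arrays. Slc6a3, the dopamine transporter, had 8.06, 8.93 and 9.82 against 9.86, 9.89 and 9.5. Array 4123 was lowest in 9 of the 12 measured genes of dopamine neurons. Th differed by −0.57 (standard error 0.31, adjusted p = 1 in limma), and by −1.03 on arrays 4123 to 4126 (standard error 0.24, adjusted p = 0.582 in limma). The list median was −0.22, and −0.44 on arrays 4123 to 4126, with 8 and 10 of 12 negative. Thalamic genes ran the other way on these arrays. Of 9 measured, 9 were positive on arrays 4123 to 4126, with a median of 0.51, and array 2541 was below array 2530 by a median of 0.43. Array 4123 was highest in 7 of the 9 (77.8%), against 20.1% of all probe sets. Array 4124 was lowest in 5 of the 9 (55.6%), against 15.6% of all probe sets. Rora, a nuclear receptor gene, had 9.77, 8.87 and 8.60 on the paced arrays and 8.52, 8.85 and 9.02 on the chamber-exposed arrays, so that array 4123 stood highest. The hypothalamic hormone genes Oxt and Avp, oxytocin and vasopressin, were measured at 11.28 to 12.26 and 11.14 to 12.31. The parts that fibroblast and regional genes have in the mating differences were not tested.

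Ttr, transthyretin, which choroid plexus secretes, had the largest difference of the 20 genes named for non-overlap on arrays 4123 to 4126. It had 9.05, 10.09 and 9.83 on the paced arrays and 7.37, 7.78 and 9.33 on the chamber-exposed arrays. Array 2530 lay above paced array 4123, so that the groups overlapped. The difference was 1.5 (standard error 0.51, adjusted p = 1 in limma), and 2.00 on arrays 4123 to 4126 (standard error 0.34, adjusted p = 0.498 in limma). Of 9 measured choroid plexus genes, 6 differences were positive, with a median of 0.04. Folr1, a folate receptor of that epithelium, differed by 0.11 (standard error 0.14) and Kcnj13, a potassium channel, by −0.10 (standard error 0.08).

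**Figure D4:**
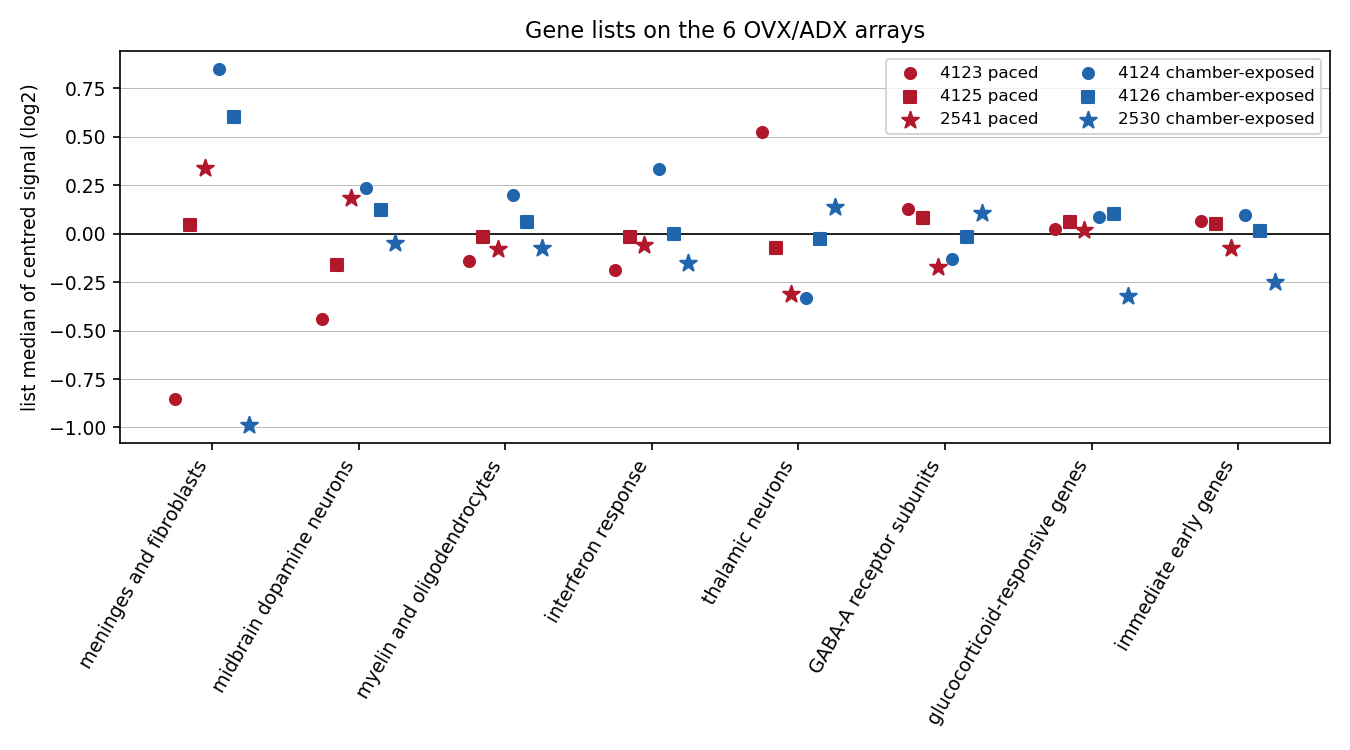
Median over the genes of 8 lists of the signal minus each gene's mean over the 6 arrays (log2), with paced arrays in red, chamber-exposed arrays in blue and stars for arrays 2541 and 2530. Fibroblast genes ranged from −0.99 on array 2530 to 0.85 on array 4124, and thalamic genes were highest on array 4123 (0.53).

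Immediate early genes, which neurons transcribe within minutes of stimulation, did not separate the mating groups. Of 20 measured, 13 differences were positive and 7 negative, with a median of 0.06, and 0 were called. Fos, a transcription factor used to map neuronal activity, had 10.07, 9.93 and 9.66 on the paced arrays and 10.05, 10.15 and 9.36 on the chamber-exposed arrays. The difference was 0.03 (standard error 0.21, adjusted p = 1 in limma). In 8 of the 20 genes both array 2541 and array 2530 lay below the other 4, beside 6.57% of all probe sets. These were Fos, Fosb, Jun, Egr1, Egr2, Egr4, Nr4a3 and Klf4. Both arrays lay above the other 4 in 0 of the 20 genes, beside 4.36% of all probe sets. The pattern was not particular to this list. Both arrays also lay below the other 4 in 4 of 11 astrocyte genes and 4 of 14 circadian clock genes. Of the 20 immediate early genes, 14 had a lower mean on arrays 2541 and 2530 than on the other 4. Egr4 had 6.32 on array 2541 and 6.05 on array 2530, and 6.81 to 7.02 on the other 4. The mean of arrays 2541 and 2530 differed from that of the other 4 by −0.70 for Egr4 and −0.54 for Fos. In this comparison 0 probe sets passed in limma and 917 (3.39%) had an unadjusted p below 0.05. Nr4a1, a nuclear receptor gene, went against this and had 9.94 on array 2541, with 8.04 to 8.36 on the others.

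Sequences before the start of Egr1 and Egr2 are shown because both genes are members of this group and share a serum response element, the CArG box. They cover 250 bases before the start from RefSeq GRCr8, 5′ to 3′ on the strand of the gene, with CArG boxes in capitals. Egr1 lies on the plus strand at chr18:26736828-26737077 and Egr2 on the minus strand at chr20:21054442-21054691.
Egr1: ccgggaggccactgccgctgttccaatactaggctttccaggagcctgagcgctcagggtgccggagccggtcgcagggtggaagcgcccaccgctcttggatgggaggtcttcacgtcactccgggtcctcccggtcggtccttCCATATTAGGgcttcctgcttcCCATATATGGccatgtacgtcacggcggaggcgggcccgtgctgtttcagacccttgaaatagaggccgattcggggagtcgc
Egr2: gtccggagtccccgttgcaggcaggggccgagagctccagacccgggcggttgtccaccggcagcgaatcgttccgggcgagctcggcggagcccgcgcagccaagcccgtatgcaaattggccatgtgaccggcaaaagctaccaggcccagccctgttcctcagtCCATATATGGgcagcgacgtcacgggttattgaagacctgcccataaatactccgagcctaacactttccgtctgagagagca
A CArG box, read on both strands, was in 1.5% of 33469 such windows, and in 2 of the 5 genes of the group that the RefSeq table holds. The Egr1 window held boxes that begin at −105 and −83, and that of Egr2 a box that begins at −83. A match is a description of letters and not a bound site. The Prl window, at chr17:38298218-38298467 on the minus strand, is shown because Prl ranged from 4.62 to 14.36, with a match to TATNCAT on the opposite strand in capitals. Those letters, on either strand, resemble sites of Pou1f1, the pituitary factor that drives prolactin and growth hormone, and 8.73% of the windows held them.
Prl: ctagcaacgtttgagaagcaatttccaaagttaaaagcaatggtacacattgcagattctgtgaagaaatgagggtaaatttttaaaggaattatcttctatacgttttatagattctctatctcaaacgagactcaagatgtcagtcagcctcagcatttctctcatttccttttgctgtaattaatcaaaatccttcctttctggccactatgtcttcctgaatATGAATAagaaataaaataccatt

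**Figure D5:**
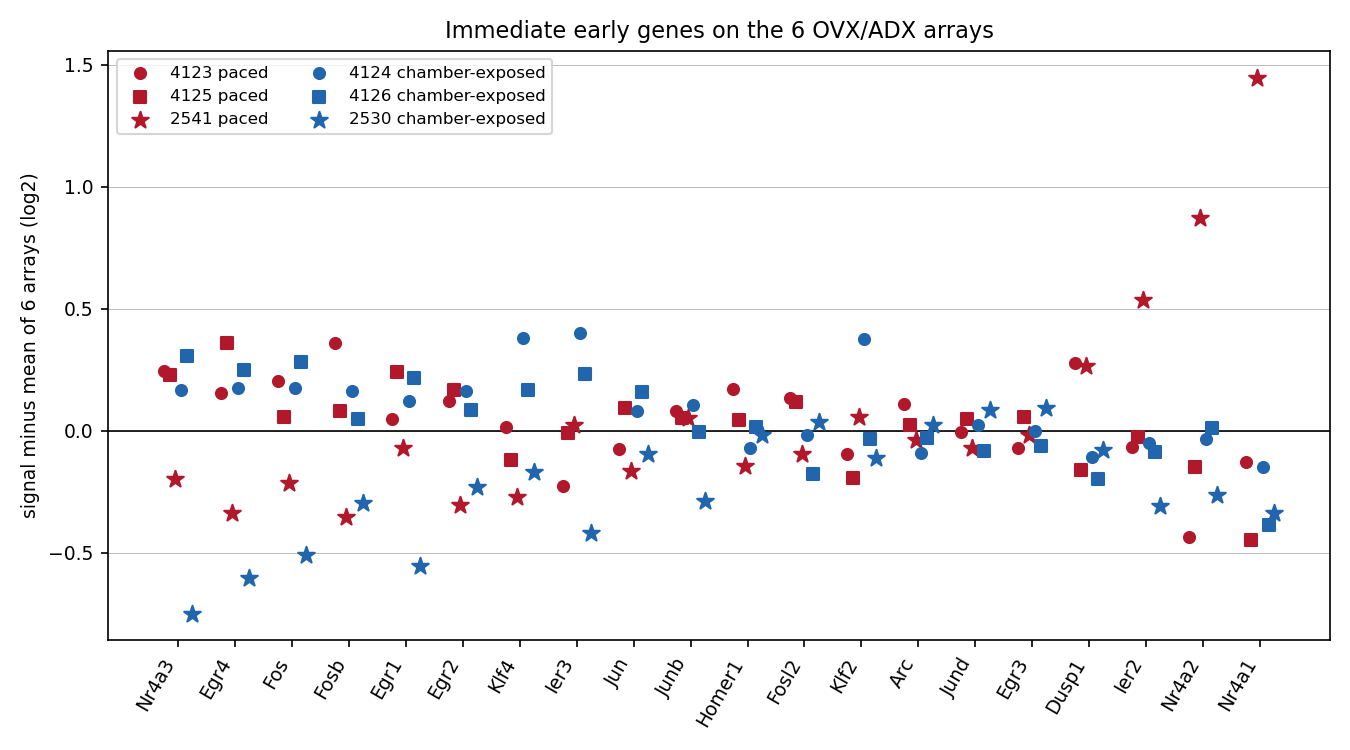
Signal of 20 immediate early genes minus each gene's mean over the 6 arrays (log2), with paced arrays in red, chamber-exposed arrays in blue and stars for arrays 2541 and 2530. Both stars lie below the other 4 arrays in 8 genes, and Nr4a1 was 9.94 on array 2541.

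Genes that respond to glucocorticoids were low on array 2530. Of 15 measured, array 2530 was lowest in 11 (73.3%), against 17.1% of all probe sets. Array 2530 was also lowest in 10 of 13 fibroblast genes (76.9%), 9 of 12 microglial genes (75%) and 5 of 8 genes of MHC class II (62.5%), whose part in this was not tested. Fkbp5, a chaperone induced by the glucocorticoid receptor, had 7.07 on array 2530 and 7.82 to 8.18 on the others. Pdk4, a kinase of fuel metabolism, had 7.45 there and 8.26 to 8.82 elsewhere. The mating differences were positive in 11 of 15 (median 0.08), and in 4 of 15 on arrays 4123 to 4126 (median −0.04). None was called. Sgk1, a kinase gene, had 10.996, 11.57 and 11.36 against 11.36, 11.54 and 10.79.

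No gene of local steroid synthesis passed the threshold. Of 11 measured, 7 differences were positive and 4 negative, with a median of 0.02, and 0 were called. Cyp11a1, the enzyme that makes pregnenolone from cholesterol, had 5.34, 5.22 and 5.13 on the paced arrays and 5.28, 5.53 and 5.57 on the chamber-exposed arrays, which overlapped. Akr1c14, a 3α-hydroxysteroid dehydrogenase that makes allopregnanolone, had 5.26, 5.28 and 5.23 against 5.52, 5.51 and 5.35, without overlap. Its difference was −0.20 (standard error 0.07, adjusted p = 1 in limma). Of the 11 genes, 1 lay wholly lower on the paced arrays and 1 wholly higher, beside 4.1% and 2.69% of all probe sets. Star, which carries cholesterol into mitochondria, differed by 0.06 and Tspo, a mitochondrial protein gene, by 0.11. The steroid receptor genes Pgr, the progesterone receptor, and Nr3c1, the glucocorticoid receptor, differed by 0.19 (standard error 0.09) and −0.05 (standard error 0.05).

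Other cell types and pathways gave small differences. Of 12 microglial genes, P2ry12 and Ctss, a lysosomal protease, had paced arrays above chamber-exposed arrays, beside 2.69% of all probe sets, and the list median was 0.05. Array 2530, chamber-exposed, was lowest in 9 of the 12 (75%). Ctss had 11.82, 11.91 and 11.93 against 11.67, 11.76 and 11.66. Of 13 interferon-response genes, 10 differences were negative (median −0.07), and 12 on arrays 4123 to 4126 (median −0.31). Array 4124 was highest in 9 of the 13 (69.2%), and without it the median was 0.02. Without array 2530 the median was −0.26. Mx2, an antiviral GTPase gene, had 7.41, 8.23 and 8.14 against 8.85, 8.30 and 8.30. The subunit genes of GABA-A receptors, on which allopregnanolone acts, were positive in 8 of 11 (median 0.04), and in 10 of 11 on arrays 4123 to 4126 (median 0.15). Array 2541 differed from array 2530 by a median of −0.33, the other way. Paced array 4123 was highest in 5 of the 11 (45.5%) and paced array 2541 lowest in 6 (54.5%). In none of these lists did a gene pass the threshold.

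The mating effect was then compared with that in the other rats of the series, with limma. By their labels both sets of intact rats were in proestrus, and no estradiol priming is stated for them. The OVX rats, like the OVX/ADX rats, were primed with estradiol benzoate after surgery. The comparison with intact rats thus joins loss of the glands with cycle stage and priming, whose separate parts were not tested. Against the 6 intact rats with number titles, 0 probe sets differed over the 6 OVX/ADX arrays. Without arrays 2541 and 2530, 11 did (0.0407%). Both probe sets of Fshb were among them, as was a probe set of S100g (4.01, adjusted p = 0.031 in limma). On arrays 4123 to 4126 Fshb was dim, at percentiles 35.5 to 37.9 on its brighter probe set and 4.3 to 8.9 on the dimmer. As labelled, these intact rats had lower pituitary hormone genes after mating, in 7 of 7 genes with a median of −2.20, and lower values of all 48 genes matched by accession. This direction is opposite to the one in which the study lists them. The brighter probe set of Fshb differed after mating by −2.20 in those intact rats and by 0.04 on arrays 4123 to 4126 (adjusted p = 0.00448 for the difference in limma). Against the 6 rats with Intact titles, 6 probe sets differed (0.0222%), and 5 without arrays 2541 and 2530 (0.0185%). The 3 of the 6 with a symbol were Fubp3, Smurf2 and Zbtb20, which encode a DNA-binding protein, a ubiquitin ligase and a zinc finger factor. Fubp3 had 6.33, 6.56 and 5.86 on the paced arrays and 5.22, 5.24 and 5.02 on the chamber-exposed arrays. Another probe set of Zbtb20 had −0.54 on arrays 4123 to 4126, against 0.28 for the one called. Without arrays 2541 and 2530, Smurf2 and Zbtb20 had an adjusted p of 0.052 in limma and Fubp3 kept its call. Eml1, a microtubule-associated protein gene, was called in that comparison, where the mating differences differed by 2.29 (adjusted p = 0.0034 in limma), and over the 6 arrays it was not (adjusted p = 0.386 in limma). The mating difference of Fubp3 was 1.09 in OVX/ADX rats and −0.78 in the Intact-titled rats, which differed by 1.87 (standard error 0.21, adjusted p = 0.026 in limma). That of Smurf2 was 0.38 in OVX/ADX rats and −1.81 in the Intact-titled rats, and that of Zbtb20 was 0.14 and −1.03. Against OVX rats, 0 probe sets differed with or without these arrays. No source says which arrays were normalized together. The lowest signal of an array was 3.38 to 3.43 in OVX/ADX rats, 3.58 to 3.65 in the number-titled intact rats and 2.296 to 2.393 in the Intact-titled and OVX rats, and all these differences compare contrasts made within a group.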

How the data were processed

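Midbrain RNA labelled as from OVX/ADX rats was hybridized to 6 Affymetrix rat arrays. The authors deposited log2 signals. The submitters' notes name RMA in Affymetrix Expression Console 1.4, whereas GCRMA in GeneSpring is named in the study's methods, and the values were used unaltered. Of 31099 probe sets, 57 were controls, and 27035 reached the array's 20th percentile on 3 or more of 24 arrays. Symbols came from GEO's platform annotation, with 20832 probe sets of 1 symbol, 436 of several and 9831 of none. In the lists, a gene's brightest probe set was used. Mating was tested with limma 3.58.1 in R 4.3.3 (lmFit and eBayes), with Benjamini-Hochberg adjustment and a threshold of 0.05, and single genes with an exact two-sided permutation test. The fits were tested on simulated data. Genes were named by a rule that took the study's qPCR genes, up to 10 genes higher and 10 lower whose groups did not overlap, in order of p among the brighter probe sets, those that differed most between the number series or groups of rats, and the brightest and lowest-p members of 40 lists. Other list members were picked once their values had been seen. Members, lists and rules were chosen with earlier results of these data known. Promoter windows came from RefSeq GRCr8. Alternatives covered the filter, normalization, eBayes options, a plain test, array weights, pooling of 24 arrays, the number series as a term and each array left out. The p-values reflect the spread between arrays of a labelled group, and precision is limited by the number of arrays. Over the 6 arrays that spread includes any difference between the number series, except where the series was a term.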

Additional observations from a re-analysis of the deposited data

Results flagged for a closer look

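On the 6 OVX/ADX arrays, 1 array lay far from the other 5 for 8 probe sets of the pituitary and related genes. The gap to the nearest array, as a share of the whole range, was compared with the 95% limit of Dixon's test, which chance exceeds in about 1 in 20 groups. It was 0.828 for Gh1, 0.664 for Prl, 0.745 for S100g, 0.777 for Lhb and 0.968 for Klk1b3. For the probe sets of Fshb it was 0.847 and 0.839, and for 1 of Gnrhr it was 0.89. In each of these array 2541, labelled paced, was the one apart.

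The medians of 40 gene lists were examined in the same way. Array 2541 was apart for pituitary hormones (0.971), other anterior pituitary genes (0.93), epithelial genes of the gland (0.715), dopamine receptors and turnover (0.797), and steroid synthesis and metabolism (0.699). In the dopamine list array 2541 was highest in 1 of 6 genes (16.7%) and in the steroid synthesis list in 2 of 11 (18.2%), against 16.9% of all probe sets, so that these medians rest on few genes. Drd2, a dopamine receptor gene, had 8.46 on array 2541 and 6.99 to 7.23 on the others. Array 4123 was apart for genes of mitochondrial oxidative phosphorylation, at 0.6251.

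The mating difference in OVX/ADX rats exceeded that in the rats with Intact titles, past the threshold of the limma interaction test, by 1.17 for Zbtb20, 1.87 for Fubp3 and 2.19 for Smurf2. For Zbtb20 and Smurf2 the larger part was a lower signal after mating in the Intact-titled rats (−1.03 and −1.81). In OVX/ADX rats these genes differed by 0.14 and 0.38, and the groups overlapped.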

How the results depend on the processing

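The count of 0 probe sets called for mating over the 6 arrays was 0 under each alternative run, leaving out each array in turn included (0 to 0), while an equal-variance test on each probe set without moderation gave 754 and array weights gave 1719 at an unadjusted p below 0.05, against 667. For arrays 4123 to 4126 the count was 2 when 22 arrays shared the spread, and 0 to 1 with each array left out, where the 1 arose without array 4126. For arrays 2541 and 2530 against the other 4, it was 0 to 132, with 132 without array 2530, where array 2541 alone stood against the others, and 1 without array 4124. For the difference from number-titled intact rats it was 11 without arrays 2541 and 2530 and 0 to 25 with each array left out, with 25 without array 2541. For the difference from Intact-titled rats it was 1 to 19, with 19 without array 2541. For the difference from OVX rats it was 0 to 1, with 1 without array 2541. Where 1 array remained in a group, it was assumed to vary like the others. The cause of the moved counts was not tested.

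Of 34 probe sets examined, 27 kept the direction of the mating difference in every alternative. The 34 include the genes named for non-overlap, whose direction cannot turn when arrays are left out. The count of 27 is therefore no measure of stability. The 7 that turned were all probe sets of the study's qPCR genes. With each array left out, the difference ranged from −0.337 to 3.44 for Gh1, from −1.05 to 3.77 for Prl, from −0.012 to 0.70 for the brighter probe set of Fshb, from −0.0601 to 1.44 for Lhb, from −0.0326 to 1.21 for the dimmer probe set of Gnrhr (0.20 to 0.55 for the brighter one), from −0.0073 to 1.63 for Klk1b3 and from −0.21 to 2.88 for Cga. Without arrays 2541 and 2530 it was −0.0447 for Prl, −0.0346 for Klk1b3 and −1.36 for Cga. No paired analysis was possible because the titles of the OVX/ADX arrays carry no replicate number. With the number series of the titles as a term, 0 probe sets were called and 615 had an unadjusted p below 0.05. The number of arrays limits what can be detected, and the signal over background of single probe sets was not examined.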
